A study of Mus musculus with 12 samples.

Results

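Pltp, Plin3, Abca2 and Srebf2 are 4 genes of lipid handling that were followed over 12 RNA-seq libraries of mouse trigeminal ganglion, the ganglion that holds the cell bodies of the corneal sensory nerves together with their glia. They were chosen by name, with earlier results of the same libraries known, as genes whose level moved with injury or stimulation, so their own levels, fold changes and threshold calls in every comparison below are a description, and nothing is read from them. The 4 are among 9969 genes that could be named by position on the GRCm38 genome, of which 4771 passed the filter on low counts, and all 4 passed it.

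All libraries came from female C57BL/6J mice aged 8 weeks, with 3 libraries in each of 4 groups. The control group had no treatment. The injury group was taken 2 weeks after a keratectomy, the removal of epithelium and upper stroma within a 1.5 mm circle of the cornea of a randomly picked eye. The group with injury and stimulation had the same wound and then electrical stimulation of the skin over the orbit at 300 µA and 20 Hz, for 4 min a day over 14 days. The group with stimulation alone had that current with no wound. Wounding was done under ketamine and xylazine with an analgesic, and stimulation under isoflurane, so these drugs cannot be told apart from the procedures. Sham electrodes are described, but no library is labelled as such, and the controls are labelled only as untreated. The number of mice in a library and the side of the ganglion are not given, so the p-values below measure the spread between these libraries.

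Phospholipids and cholesterol travel between cells on lipoproteins, are moved across membranes by ABC transporters, and are stored as esters and triglycerides in lipid droplets. Glial cells depend on these routes because myelin is built mainly of cholesterol, phospholipids and glycosphingolipids, and debris of damaged myelin returns the same lipids for storage or export. Pltp encodes phospholipid transfer protein, a secreted protein that moves phospholipids between lipoproteins. Abca2 encodes an ABC transporter of late endosomes and lysosomes that is abundant in myelinating glia. Plin3 encodes perilipin 3 (also called TIP47), a protein that coats newly formed lipid droplets. Srebf2 encodes SREBP2, the membrane-bound transcription factor that is released when sterols run low and activates the genes of cholesterol synthesis and uptake.

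Libraries held 7952798 to 10751547 counted reads. The deposited intervals use GRCm39 coordinates while the reads lie on GRCm38 exons, which held 98.6% to 99.3% of nuclear reads, so the intervals deposited under the symbols of the 4 genes do not measure them. Replicates of the control, injury and stimulation-alone groups differed by 7.81 to 31.1 times the variance expected from counting. The largest of these values were those of stimulation-alone replicate 3, 18.2 against replicate 1 and 31.1 against replicate 2. In the group with injury and stimulation, replicate 2 stood apart from replicates 1 and 3, by 67.1 and 44.6 times that variance, and values without it are given where the group is compared.

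Each gene is measured only through the bases that lie under its interval, and the exon bases among them are given for each. Pltp (GRCm38 chr2:164839518-164857711, minus strand) is read through 329 coding bases, 12.8% of its exon bases, under the interval deposited as Ncoa5, which held 260 to 1635 reads per library. Plin3 (chr17:56277476-56292873, minus strand) is read through 1453 exon bases, 443 of them coding, under the interval deposited as Shd, with 642 to 2364 reads. Abca2 (chr2:25428703-25448540, plus strand) is read through 211 bases of its last exon, 15 of them coding, under the interval deposited as Edf1, with 986 to 4583 reads. These are 2.53% of the exon bases of Abca2, and 1106 of the 1317 bases of the interval lie outside the gene. Srebf2 (chr15:82147181-82205379, plus strand) is read through 1291 exon bases, 696 of them coding, under the interval deposited as Sept3, with 882 to 2925 reads. Counting was unstranded, so reads from the opposite strand are included. The intervals of Pltp, Plin3 and Srebf2 also span introns (3327, 1112 and 7028 bases), whose reads are counted with those of the exons. The Pltp interval also holds 727 bases outside the gene.

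To show what was counted, a coding stretch under an interval is given for each gene, in the sense of the mRNA and all in lower case, from GENCODE M21 transcripts on GRCm38. The Pltp stretch is chr2:164844595-164844759 and the Plin3 stretch chr17:56281407-56281606, both on the minus strand, and the Srebf2 stretch is chr15:82175097-82175318 on the plus strand. The Abca2 interval holds too few coding bases for this, so the stretch shown for Abca2, chr2:25444325-25444440 on the plus strand, lies under another interval over Abca2 alone that is compared further on.
Pltp coding stretch: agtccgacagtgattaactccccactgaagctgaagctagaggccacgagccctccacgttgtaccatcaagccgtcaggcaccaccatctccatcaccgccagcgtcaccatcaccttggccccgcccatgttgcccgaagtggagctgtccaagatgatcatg
Plin3 coding stretch: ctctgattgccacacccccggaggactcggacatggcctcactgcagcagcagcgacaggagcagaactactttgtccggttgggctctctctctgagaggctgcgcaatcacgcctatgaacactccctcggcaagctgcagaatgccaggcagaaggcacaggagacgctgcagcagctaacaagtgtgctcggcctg
Abca2 coding stretch: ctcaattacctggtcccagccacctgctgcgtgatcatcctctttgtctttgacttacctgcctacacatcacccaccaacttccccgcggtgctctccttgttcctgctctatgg
Srebf2 coding stretch: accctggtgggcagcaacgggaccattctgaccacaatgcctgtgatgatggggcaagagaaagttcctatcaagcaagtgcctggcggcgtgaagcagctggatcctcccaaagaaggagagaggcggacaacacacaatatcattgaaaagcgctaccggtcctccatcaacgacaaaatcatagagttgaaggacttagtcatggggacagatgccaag
The GC content of these stretches was 58.2% for Pltp, 60.0% for Plin3, 54.3% for Abca2 and 51.8% for Srebf2. Over the whole intervals the transcribed bases had 57.8%, 52.0%, 59.7% and 51.6% GC, against a median of 50% (quartiles 44.3% and 55.4%) over the tested intervals with a GC value.

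Because 3 of the genes moved together and the fourth is itself a sterol-responsive factor, the promoters are set side by side. The 250 bases before each start are printed 5′ to 3′ from RefSeq (GRCm38.p6), with matches to searched motifs in capitals. They are chr2:164857709-164857958 (minus strand) for Pltp, chr17:56290512-56290761 (minus strand) for Plin3, chr2:25428349-25428598 (plus strand) for Abca2 and chr15:82147019-82147268 (plus strand) for Srebf2. These starts are not the ends of the genes given above. The Plin3 bases lie inside the gene, which runs to 56292873, and the Srebf2 bases run past the gene start at 82147181. Other starts of the genes were not searched.
Pltp promoter: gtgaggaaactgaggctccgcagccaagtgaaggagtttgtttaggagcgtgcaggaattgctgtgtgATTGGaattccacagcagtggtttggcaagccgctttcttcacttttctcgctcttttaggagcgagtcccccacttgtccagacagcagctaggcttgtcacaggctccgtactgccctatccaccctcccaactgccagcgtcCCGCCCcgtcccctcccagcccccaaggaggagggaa
Plin3 promoter: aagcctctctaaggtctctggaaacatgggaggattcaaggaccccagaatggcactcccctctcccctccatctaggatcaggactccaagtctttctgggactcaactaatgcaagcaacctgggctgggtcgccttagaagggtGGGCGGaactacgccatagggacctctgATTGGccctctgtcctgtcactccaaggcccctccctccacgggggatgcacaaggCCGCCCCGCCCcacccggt
Abca2 promoter: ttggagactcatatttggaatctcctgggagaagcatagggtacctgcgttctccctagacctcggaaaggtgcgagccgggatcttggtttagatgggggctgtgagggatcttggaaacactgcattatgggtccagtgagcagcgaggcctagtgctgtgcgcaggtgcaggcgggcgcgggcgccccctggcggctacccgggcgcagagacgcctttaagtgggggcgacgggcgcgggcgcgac
Srebf2 promoter: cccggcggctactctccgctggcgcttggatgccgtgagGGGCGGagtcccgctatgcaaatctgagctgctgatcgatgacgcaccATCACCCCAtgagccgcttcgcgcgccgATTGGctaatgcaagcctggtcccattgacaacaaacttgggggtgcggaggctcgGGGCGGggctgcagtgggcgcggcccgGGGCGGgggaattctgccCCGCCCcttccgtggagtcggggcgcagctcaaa
Each of 6 short motifs is read against all 32851 promoters of the same 300 base window, 250 before and 50 after the start, on both strands. The sterol regulatory element ATCACCCCA, the site SREBP proteins bind, occurred in Srebf2 at position -163 and in none of the other three, and 0.28% of all promoters hold it. The CCAAT box (CCAAT) occurred once in Pltp at -182, in Plin3 at -75 and in Srebf2 at -135, each on the reverse strand, and 37.4% of all promoters hold it. The GC box (GGGCGG) occurred once in Pltp, 3 times in Plin3, where 2 of the matches overlap by a base, 5 times in Srebf2 and once in Abca2, at 25 bases past the start and so beyond the printed bases, and 35.7% of all promoters hold it. None of the 4 windows held CACGTG, the LXR element (a direct repeat with 4 bases between) or TGANTCA, the AP-1 site, which 7.15%, 0.0152% and 7.81% of all promoters hold. A match is a string of letters and says nothing of binding in these ganglia.

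Levels are given in CPM, the read count scaled to library size and by the TMM method, which allows for differences in library composition. They follow one gene across libraries and are not compared between genes, since each interval covers a different length. In whole ganglia a change in the number of cells of a type and a change in RNA per cell cannot be told apart.

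Pltp stood at 35.4, 40.2 and 30.5 CPM in the controls and at 141, 174 and 143 CPM after injury. With injury and stimulation it stood at 97.2, 43.5 and 62.4 CPM, and with stimulation alone at 108, 141 and 79.8 CPM. All 3 injury libraries were above every other library, though the lowest of them (141.4 CPM) lay next to the highest of stimulation alone (140.9 CPM). Without TMM scaling these groups overlapped: stimulation-alone replicate 2 (148.8 CPM) lay above injury replicates 1 and 3 (127.7 and 122.3 CPM). All controls were below every other library, and the 2 stimulated groups overlapped. The means were 35.3 ± 4.85 (SD, n = 3) in controls, 153 ± 18.3 after injury, 67.7 ± 27.3 with injury and stimulation and 109 ± 30.6 with stimulation alone.

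Abca2 stood at 150, 160 and 116 CPM in the controls and at 508, 439 and 517 CPM after injury. With injury and stimulation it stood at 380, 228 and 289 CPM, and with stimulation alone at 337, 357 and 235 CPM. The order was that of Pltp at both ends, with controls lowest and injury highest without overlap, and the 2 stimulated groups between them overlapped almost fully. The means were 142 ± 23.3, 488 ± 42.7, 299 ± 76.5 and 309 ± 65.2 CPM (SD, n = 3) in controls, injury, injury with stimulation and stimulation alone.

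Plin3 stood at 100.1, 92.3 and 75.2 CPM in the controls and at 262, 216 and 228 CPM after injury. With injury and stimulation it stood at 134, 116 and 101.6 CPM, and with stimulation alone at 150.2, 147 and 118 CPM. Injury was again the highest group without overlap, and the gap between the highest control and the lowest library with injury and stimulation was narrow (100.1 against 101.6 CPM). The means were 89.2 ± 12.7 in controls, 235 ± 24.1 after injury, 117 ± 16.0 with injury and stimulation and 138 ± 17.9 CPM (SD, n = 3) with stimulation alone.

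Srebf2 had another order. It stood at 132, 150.4 and 103 CPM in the controls, at 146, 157 and 137 CPM after injury, at 139, 143 and 128 CPM with injury and stimulation, and at 179, 155 and 233 CPM with stimulation alone. The controls, the injury group and the group with injury and stimulation overlapped, and stimulation alone was above every control and every library with both procedures but overlapped the injury group. The means were 129 ± 23.8, 147 ± 10.1, 137 ± 7.44 and 189 ± 40.0 CPM (SD, n = 3), in that order of groups.

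**Figure D1:**
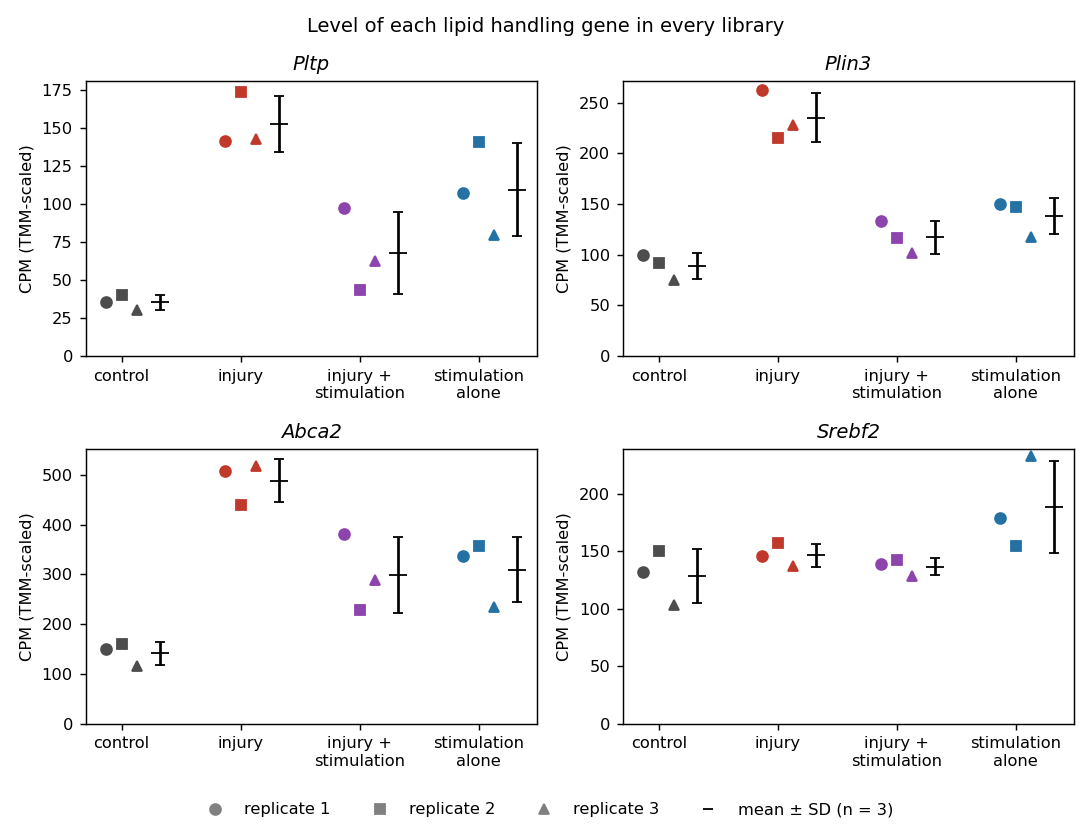
Level of Pltp, Plin3, Abca2 and Srebf2 in each of the 12 libraries (y axis, CPM with TMM scaling, each panel from 0) by group (x axis); the marker shape is the replicate, and the bar beside each group is the mean ± SD of 3 libraries. Injury is the highest group for Pltp (141 to 174 CPM), Plin3 (216 to 262) and Abca2 (439 to 517), while the highest Srebf2 libraries are 179 and 233 CPM with stimulation alone.

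After injury alone, Pltp was 4.32-fold the control level (log2 difference 2.11 ± 0.25, SE), Abca2 3.45-fold (1.78 ± 0.20) and Plin3 2.64-fold (1.40 ± 0.16). For Srebf2 the difference was 0.19 ± 0.17, with a 95% interval from -0.13 to 0.51, and it turned to -0.065 after each library was corrected for the trend of its log2 counts with GC content and exon length (called GC and length correction below). In the fit over all 13053 intervals, 3 of the 4 genes were past an adjusted p of 0.05 upwards, where 19.3% of all intervals were, and the same 3 did not overlap their controls, as 28.8% of all intervals did not in that direction. The median log2 difference was 1.59 over the 4 genes and 0.03 over all tested intervals.

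Stimulation alone, compared with the same controls, also went with higher levels. Pltp was 3.09-fold the control level (1.63 ± 0.25), Abca2 2.18-fold (1.13 ± 0.20), Plin3 1.55-fold (0.63 ± 0.16) and Srebf2 1.47-fold (0.55 ± 0.17). All 4 were past the threshold upwards, as 18.2% of all intervals were, and all 4 lay above the controls without overlap, as 26.1% of all intervals did. After GC and length correction, Plin3 (0.37) and Srebf2 (0.32) were no longer past it. Plin3 was also not past it without stimulation-alone replicate 1 or 2, nor was Srebf2 without control replicate 3 or stimulation-alone replicate 1 or 3.

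When injured mice were also stimulated, 3 of the genes were lower than after injury alone. Pltp was 2.26-fold lower (log2 difference -1.17 ± 0.24), Plin3 2.01-fold lower (-1.01 ± 0.16), Abca2 1.63-fold lower (-0.71 ± 0.20), and Srebf2 differed by -0.10 ± 0.17. The threshold was passed downwards by 2 genes, Pltp and Plin3, where 1.50% of all intervals passed it, and 3 genes did not overlap, where 10.1% of all intervals did not. Without replicate 2 of injury with stimulation, the differences were -0.87 for Pltp, -0.93 for Plin3 and -0.48 for Abca2. Pltp was past the threshold in 6 of the 12 fits that left out a library (not without any of the 3 injury libraries, replicate 2 or 3 of injury with stimulation, or stimulation-alone replicate 1) and not in a fit of these groups only, and Plin3 in 11, the exception being replicate 3 of injury with stimulation.

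Compared with untreated controls, the group with injury and stimulation had Abca2 2.11-fold higher (1.08 ± 0.20) and Pltp 1.91-fold higher (0.94 ± 0.25). The difference was 0.39 ± 0.16 for Plin3 and 0.09 ± 0.17 for Srebf2. Past the threshold upwards were 2 genes, Pltp and Abca2, against 12.3% of all intervals. In TMM-scaled CPM 3 genes did not overlap, against 17.6%, though Plin3 did without TMM scaling. Without replicate 2 of injury with stimulation the differences were 1.22 for Abca2 and 1.16 for Pltp. Pltp was not past the threshold without control replicate 1 or 3 or without replicate 1 or 3 of injury with stimulation, nor after GC and length correction or in a fit of these groups only, and Abca2 was not past it without replicate 3 of injury with stimulation.

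Between the stimulated groups, with and without injury, Abca2 differed by -0.05 ± 0.20, with a 95% interval from -0.43 to 0.34, Plin3 by -0.24 ± 0.16 and Pltp by -0.69 ± 0.24. Srebf2 was 1.38-fold lower with injury (-0.47 ± 0.17), and it was the only gene of the 4 whose groups did not overlap, as 10.5% of all intervals did not in that direction. None of the 4 was past the threshold in edgeR's test (2 had an unadjusted p under 0.05) or in DESeq2 (0 of 4), where 4.07% of all intervals were in edgeR in either direction. Without replicate 2 of injury with stimulation the differences were 0.13 for Abca2, -0.21 for Plin3, -0.43 for Pltp and -0.47 for Srebf2.

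The interaction asks whether stimulation moved a gene by a different amount in injured and in uninjured mice. It was -2.80 ± 0.35 for Pltp, -1.83 ± 0.28 for Abca2, -1.64 ± 0.22 for Plin3 and -0.66 ± 0.23 for Srebf2, on the log2 scale. Of the 4 genes, 3 were past the threshold downwards, as 12.3% of all intervals were (19.2% in either direction), and these comparisons share the control and injury libraries, so they are not separate evidence. Without replicate 2 of injury with stimulation the values were -2.46, -1.56, -1.52 and -0.57 in the same order.

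**Figure D2:**
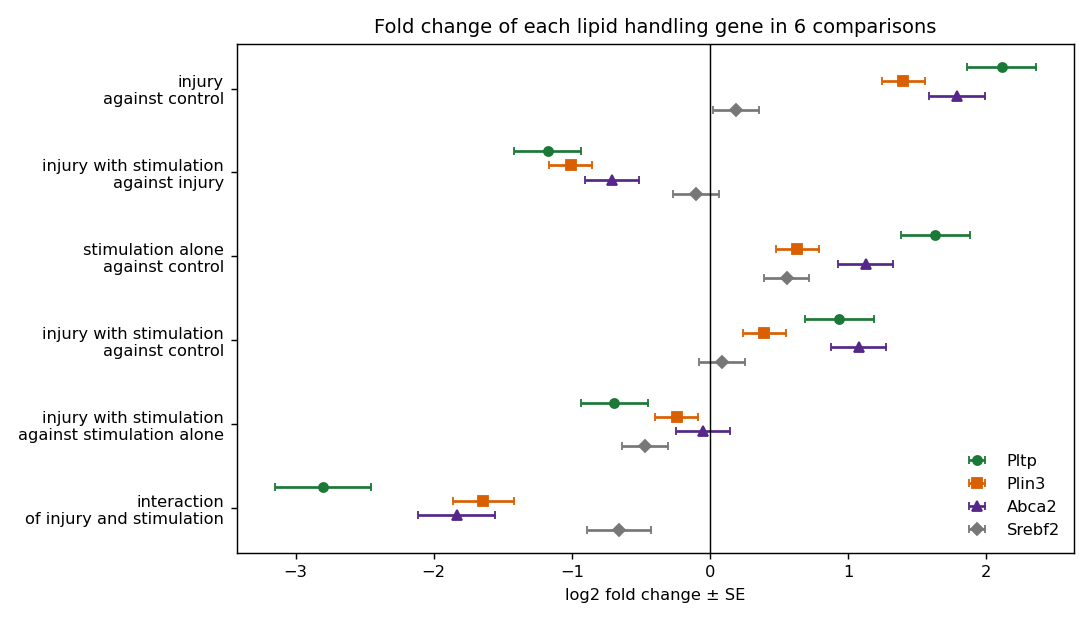
Log2 fold change of each gene (x axis; points, with SE as bars, from a fit of all 12 libraries) in 6 comparisons (y axis). Pltp, Plin3 and Abca2 are above 0 with injury (1.40 to 2.11) and with stimulation alone (0.63 to 1.63) and below 0 for injury with stimulation against injury (-1.17 to -0.71), and Srebf2 is farthest above 0 with stimulation alone (0.55).

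Abca2 could be read in a second place. Another interval over Abca2 alone, deposited as Gm13432, covers 156 coding exon bases (part of them the Abca2 stretch printed above) and 85 intron bases. It held 331 to 1045 reads per library. Its mean levels were 45.6 ± 3.61 CPM in controls, 70.5 ± 7.34 after injury, 47.5 ± 9.48 with injury and stimulation and 75.9 ± 6.47 with stimulation alone (SD, n = 3). The log2 difference was 0.63 ± 0.16 for injury, 0.74 ± 0.16 for stimulation alone and -0.57 ± 0.16 for injury with stimulation against injury. In these comparisons the directions were those of the interval at the end of the gene, with 1.78, 1.13 and -0.71 there. The other comparisons differed: injury with stimulation was 0.06 ± 0.16 from control in the coding interval, with overlapping groups, against 1.08 at the end of the gene. It was -0.68 ± 0.16 from stimulation alone, without overlap, against -0.05.

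The number of reads at the end of Abca2 for each read in these coding exons does not depend on library scaling. It was 3.28, 3.26 and 2.75 in the controls, 6.99, 7.06 and 6.78 after injury, 9.06, 3.90 and 6.88 with injury and stimulation, and 4.57, 5.04 and 2.83 with stimulation alone. Injury and controls did not overlap, with mean ratios of 6.94 ± 0.15 and 3.10 ± 0.30 (SD, n = 3), whereas stimulation alone (4.14 ± 1.17) overlapped the controls. The size of the Abca2 difference therefore depended on which bases were read. A further interval over 49 exon bases, deposited as Gm13433, held 24 to 175 reads, and its groups overlapped in all comparisons, with -0.76 ± 0.46 for injury.

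**Figure D3:**
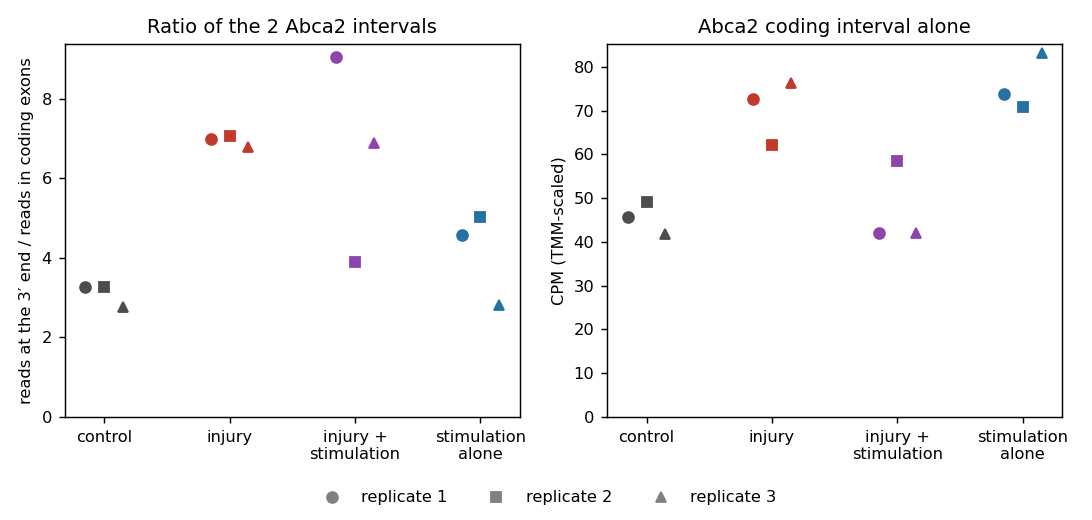
Left, reads in the interval at the end of Abca2 divided by reads in the interval over its coding exons (y axis), for each library by group; right, the level of the coding interval alone (y axis, CPM with TMM scaling). The ratio is 6.78 to 7.06 after injury against 2.75 to 3.28 in controls, and the coding interval has its highest library, 83.2 CPM, with stimulation alone.

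The likeness of 2 genes was measured as the root mean square difference of their log2 CPM, each centred on its mean, over the 12 libraries, and it describes patterns only. Plin3 and Abca2 were 0.29 apart, Pltp and Abca2 0.31 and Pltp and Plin3 0.44, and Srebf2 was 0.53 to 0.78 from the other three. The genes closest to Pltp were Pdk2 (0.23), a kinase that inhibits pyruvate dehydrogenase, Nfix (0.25), a nuclear factor I transcription factor, and Grhpr (0.30), against a median of 0.94 over 4770 genes. Closest to Plin3 were Ltbp4 (0.097), a binding protein of latent TGF-beta, Litaf (0.099), a protein of late endosomes, and Frmd8 (0.11), against a median of 0.66. Closest to Abca2 were Anp32b and Tsc22d4 (each 0.18) and again Pdk2 (0.20), against a median of 0.79. Closest to Srebf2 were Eif3b (0.11), a subunit of translation initiation factor 3, Ric8a (0.11) and Srpr (0.11), the receptor of the signal recognition particle, against 0.50.

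Lipid genes around the 4 were followed in 9 lists with 172 genes in all. Of these, 58 could be named by position and 47 were tested. The rest had no usable interval or too few reads. List genes, too, were read only through the exon bases under their intervals. Those of Fa2h (409), Acaca (357), Elovl6 (783), Degs1 (779) and Cd36 (1349) held 0 coding bases. Those of Cers2 (225) and Acadl (303) were all coding, and Abca1 was read through 6783 coding bases. Whether the size of a difference depended on the bases read was not tested for list genes. After injury 13 of the 47 rose and 3 fell (edgeR's quasi-likelihood test, Benjamini-Hochberg adjusted p under 0.05 over all intervals), 34.0% against 31.0% of all intervals. Without replicate 2 of injury with stimulation, whose library enters the shared estimate of spread, 14 rose and 6 fell. With stimulation alone 17 rose and 6 fell, 48.9% against 29.8%. After GC and length correction 7 rose and 4 fell, and the number past the threshold among all 13053 intervals went from 3896 to 2164. With injury and stimulation against injury none rose and 4 fell, 8.51% against 1.54% of all intervals. None of the 4 falls was past the threshold without injury replicate 1 or without replicate 3 of injury with stimulation. The median log2 difference over the 47 genes was 0.36, 0.30 and -0.09 in these comparisons. The counts of each list below stand beside these shares of all intervals. Past the threshold upwards were 19.3% after injury and 18.2% with stimulation alone. Past it downwards were 1.50% for injury with stimulation against injury.

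Cholesterol synthesis and uptake, the targets of SREBP2, could be read in only 2 of 22 genes. The synthesis enzymes Mvk (0.50 after injury and 0.07 with stimulation alone) and Sc5d (0.18 and -0.33) did not pass the test. Of the genes that control SREBP processing 1 was tested, Scap, the escort protein of SREBP, which rose with stimulation alone (0.75 ± 0.26, adjusted p = 0.038), but not without control replicate 1 or 3, stimulation-alone replicate 1 or 3, or replicate 3 of injury with stimulation, nor after GC and length correction (adjusted p = 0.059).

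Among 7 tested genes of cholesterol efflux and lipoproteins, 2 rose and 2 fell after injury. Clu, the lipoprotein clusterin, rose from 582 ± 48.2 to 1457 ± 50.5 CPM (1.32 ± 0.19, adjusted p = 0.000545). Nr1h2, the oxysterol receptor LXR-beta, rose by 0.88 ± 0.17 (adjusted p = 0.0024), which was 0.44 and not past the threshold after GC and length correction (adjusted p = 0.053). Abca1, the exporter of cholesterol and phospholipid to apolipoprotein A-I, fell from 302 ± 7.96 to 186 ± 10.3 CPM (-0.70 ± 0.15, adjusted p = 0.00328), and Vldlr fell by 1.30 on the log2 scale, though not past the threshold without control replicate 3. Lrp1 (0.37) and Abcg4 (0.15) did not pass the test after injury. Abca1 also fell with stimulation alone (-0.74 ± 0.15, adjusted p = 0.00158), while 4 genes rose there, Nr1h2 (0.87), Clu (0.83), Abcg4 (0.81) and Lrp1 (0.59). Abcg4, a sterol exporter of neural cells, stayed past the threshold after GC and length correction (adjusted p = 0.0097) and without each library in turn. Nr1h2, Clu and Lrp1 did not pass it after that correction, nor did Lrp1 without control replicate 1 or 3 or stimulation-alone replicate 2 or 3.

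Of the other ABCA transporters 6 of 14 listed were tested. After injury 2 of them fell, Abca1 and Abca8b (-0.69 ± 0.14, adjusted p = 0.00267). Abca3 (-0.62), Abca7 (-0.16), Abca8a (-0.02) and Abca12 (0.50) did not pass the test there. With stimulation alone the same 2 fell and Abca7 rose (0.63), with Abca7 and Abca8b no longer past the threshold after GC and length correction.

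Of 6 tested genes of lipid droplets, 1 rose after injury, Hsd17b11, an enzyme on the droplet surface (0.77 ± 0.19, adjusted p = 0.00686). With stimulation alone Hilpda, an inhibitor of the lipase ATGL, fell from 34.5 ± 3.00 to 20.8 ± 0.59 CPM (-0.73 ± 0.14, adjusted p = 0.00105). M6pr, the mannose 6-phosphate receptor whose tail Plin3 was first found to bind, fell with stimulation alone (-0.52 ± 0.13, adjusted p = 0.00744), but not past the threshold after GC and length correction. Mgll, which cleaves monoglycerides, rose with stimulation alone (0.66), but not past the threshold without control replicate 3 or stimulation-alone replicate 1 or after the same correction. Cidea (0.71), Mgll (0.42), Hilpda (0.19), M6pr (0.12) and Igf2r (-0.25) did not pass the test after injury, and Plin3 is the only perilipin read.

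Of 5 tested genes of lysosomal lipid handling, 2 rose after injury, Arsa, the sulfatidase arylsulfatase A (0.66 ± 0.17, adjusted p = 0.00746), and Mcoln1, a lysosomal cation channel (0.49 ± 0.17, adjusted p = 0.0419), whose call was lost in 9 of 12 fits without a library and after GC and length correction. Glb1 (0.46), Hexa (0.42) and Galc (-0.79) did not pass it. With stimulation alone Arsa (0.92), Glb1 (0.79) and Mcoln1 (0.76) rose, of which Glb1 lost the call without stimulation-alone replicate 1 or 2, and Glb1 and Mcoln1 after GC and length correction. Of 9 tested genes of fatty acid and triglyceride synthesis, 3 rose after injury. Acaca, acetyl-CoA carboxylase, rose from 55.6 ± 9.54 to 125 ± 3.20 CPM (1.16 ± 0.18, adjusted p = 0.000914), Elovl6, a fatty acid elongase, by 0.79 ± 0.18 (adjusted p = 0.00452), and Me1 by 0.40 ± 0.15 (adjusted p = 0.0477), a call that was lost in 10 of the 12 fits. Acly (0.39), Scd1 (0.36), Fads1 (-0.04) and Acacb (-0.61) did not pass it. With stimulation alone Acaca (0.75), Fads1 (0.64) and Acly (0.41) rose, none of them past the threshold after GC and length correction. Without a library, Acly lost the call in 9 of the 12 fits, Fads1 in 4 and Acaca in 1.

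Of 4 tested genes of fatty acid uptake and oxidation, 1 rose after injury, the acyl-CoA dehydrogenase Acadl (0.64 ± 0.14, adjusted p = 0.00335). With stimulation alone Acadl (0.77) and Cpt1c, a carnitine palmitoyltransferase of neurons (1.30 ± 0.27, adjusted p = 0.00165), rose, and Ppard passed in neither (0.53 and 0.69). Cd36, a fatty acid and lipoprotein scavenger receptor, stood at 15.3 ± 6.18 CPM in controls and 13.8 ± 2.27 after injury, and at 4.85 ± 0.41 with injury and stimulation and 3.84 ± 1.05 with stimulation alone. Its fall was -1.98 ± 0.30 for stimulation alone against controls (adjusted p = 0.00027) and -1.51 ± 0.30 for injury with stimulation against injury (adjusted p = 0.0155), the latter not past the threshold without injury replicate 1 or 2 or without replicate 3 of injury with stimulation.

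Of 8 tested genes of sphingolipid and myelin lipid synthesis, 4 rose after injury and none fell. Fa2h, which makes the hydroxylated fatty acids of myelin galactolipids, rose from 87.0 ± 9.38 to 325 ± 17.1 CPM (1.90 ± 0.19, adjusted p = 9.58e-05). Cers2, the ceramide synthase of very long acyl chains (0.74 ± 0.15, adjusted p = 0.00276), Gal3st1, the sulfotransferase that makes sulfatide (0.69 ± 0.16, adjusted p = 0.00465), and the desaturase Degs1 (0.63 ± 0.18, adjusted p = 0.0126) rose too, Gal3st1 not past the threshold after GC and length correction (adjusted p = 0.052). Ugcg, glucosylceramide synthase, was at -0.27 and did not pass the test. With stimulation alone 2 of the 8 rose and 1 fell. Fa2h rose there (0.80 ± 0.18, adjusted p = 0.00361), also without each library in turn and after GC and length correction. Ugcg fell (-0.35), a call lost in 9 of the 12 fits without a library. With injury and stimulation against injury, Fa2h (-1.05 ± 0.18, adjusted p = 0.00723), Gal3st1 (-0.73 ± 0.16, adjusted p = 0.0246) and Cers2 (-0.69 ± 0.15, adjusted p = 0.0263) fell. Fa2h lost this call without injury replicate 1 or without replicate 3 of injury with stimulation. Gal3st1 lost it in 5 and Cers2 in 8 of the 12 fits without a library, and both lost it after GC and length correction (adjusted p = 0.057 and 0.086).

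**Figure D4:**
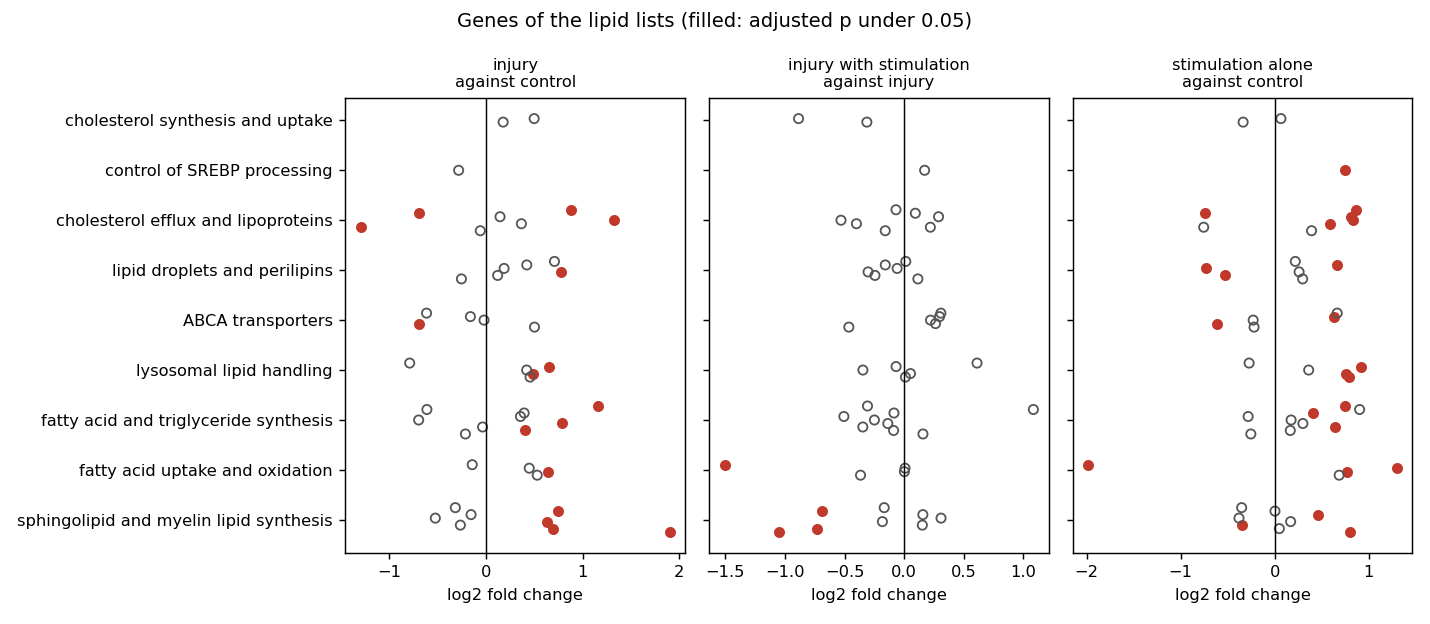
Log2 fold change (x axis) of the 47 tested genes of 9 lipid lists (y axis) in 3 comparisons; each point is a gene, filled where the adjusted p is under 0.05, and Abca1, a member of 2 lists, is drawn once. Fa2h is the farthest right after injury (1.90), and Cd36 is the farthest left with injury and stimulation against injury (-1.51) and with stimulation alone (-1.98).

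Markers of several cell types moved with the injury group, in which Pltp, Plin3 and Abca2 were highest. The summed level of 5 measured oligodendrocyte markers (of 10 listed) was 254 to 427 CPM in controls, 825 to 1439 after injury, 224 to 461 with injury and stimulation and 354 to 630.1 with stimulation alone. All 5 rose past the threshold after injury, where 19.3% of all intervals did. All 5 fell past it with injury and stimulation against injury, where 1.50% of all intervals did. Markers of myelinating Schwann cells (4 of 10) summed to 3048 to 3990, 6033 to 7957, 3170 to 6232 and 4689 to 5038 CPM. Meningeal and fibroblast markers (7 of 10) summed to 9145 to 10020 CPM in controls and 27350 to 27660 after injury. They were at 8299 to 10030 with injury and stimulation and 4690 to 9160 with stimulation alone. Ptgds held most of this sum, with a mean of 5226 CPM in controls and 21990 after injury. After injury 5 of the 7 markers were past the threshold upwards, against 19.3% of all intervals, and 2 did not pass it. Macrophage markers (5 of 10) summed to 117 to 135 CPM in controls and 185 to 221 after injury. They summed to 95.8 to 112 with injury and stimulation and to 72.8 to 98.3 with stimulation alone. After injury these 5 markers did not move together: 3 were past the threshold upwards, 1 was past it downwards and 1 did not pass it. Of all intervals, 31.0% were past it in either direction. Astrocyte markers (4 of 7) summed to 20.6 to 35.4 CPM in controls and 104 to 149 after injury. Their sum was 31.4 to 47.3 with injury and stimulation and 41.7 to 96.8 with stimulation alone. Endothelial markers (3 of 7) summed to 16.9 to 18.9, 27.4 to 37.1, 19.3 to 26.4 and 25.4 to 35.3 CPM in that order of groups.

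With stimulation alone, the Schwann cell, astrocyte and endothelial sums lay above every control, and the oligodendrocyte sum overlapped the controls. The meningeal sum overlapped them in 1 library and was otherwise lower, and the macrophage sum lay below every control. Of the 4 Schwann cell markers, Prx, the largest part of the sum, and Cnp were past the threshold upwards there, against 18.2% of all intervals. The other 2 were not, and Mal stood at 726 to 742 CPM, below every control (839 to 1017 CPM). Sensory neuron markers (4 of 10), which check the labelled tissue, summed to 4069 to 4656 CPM in controls and to 6301 to 7817 after injury. They summed to 5531 to 10250 with injury and stimulation and to 7491 to 9128 with stimulation alone. Satellite glial markers (3 of 9) summed to 387 to 499.5 CPM in controls and to 372 to 518 after injury. With injury and stimulation their sum was 304 to 386 CPM, and with stimulation alone 329 to 448 CPM. These sums hide markers that went in opposite directions. After injury all 3 were past the threshold, Kcnj10 upwards (1.64) and Cdh19 (-1.12) and Ptprz1 (-0.48) downwards. With stimulation alone they were past it in the same directions (1.03, -1.60 and -0.58). Of all intervals, 31.0% and 29.8% were past it in either direction. Within injury with stimulation, the Schwann cell sum was 6232 in replicate 1, 3170 in replicate 2 and 3813 in replicate 3, and the oligodendrocyte sum was 224, 461 and 253 CPM. Pltp and Abca2 were highest in replicate 1 and lowest in replicate 2, and Plin3 was highest in replicate 1 and lowest in replicate 3. Of the adipocyte list only Lep could be read, at 0 to 0.16 CPM. Of the skeletal muscle list 1 of 7 markers was read, and it passed the threshold in none of the comparisons. Its level was 1.37 to 176 CPM in controls and 42.3 to 119 after injury. It was 0.51 to 18.4 with injury and stimulation and 0.33 to 12.9 with stimulation alone. The part of these cell types in the levels of the 4 genes was not tested.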

How the data were processed

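The deposited values are whole read counts per gene identifier (56941 in each of 12 libraries). Per the file headers the authors counted with featureCounts 2.0.6 on Ensembl 110 models of GRCm39, unstranded, with reads allowed in several overlapping genes; DESeq2, FastQC and Salmon 1.10.2 are named in the submitters' processing notes. Libraries were poly(A) selected, per the labels' protocols. For the aligner's version and build, the value is not given in the sources used here.

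An interval took a gene's name where it lay over exons of only that GENCODE M21 gene (GRCm38) for at least 100 bases, the interval with most exon bases being used. Counts were fitted in edgeR 4.0.16 (R 4.3.3; TMM, filterByExpr, robust quasi-likelihood F test), with all 12 libraries in 1 fit (biological coefficient of variation 0.24) and Benjamini-Hochberg adjustment over 13053 intervals. The method was tested on simulated data. Likeness used log2(CPM + 0.5). Alternatives were DESeq2 1.42.0, no filter, only the groups compared, a replicate block, a GC and length correction (offsets from splines of each library's log2 CPM on GC content and exon length, with and without the block), leaving out each library, CPM without TMM, and summing all intervals over a gene. Members, lists and alternatives were chosen with earlier results of these data known. The text names all tested genes of lists with at most 6 tested, otherwise the 4 with the smallest p in injury against control or injury with stimulation against injury, and the 3 genes most like each member (predicted genes and pseudogenes left out). Precision is limited by 3 libraries per group and by read numbers under each interval. A few genes of the lists are not reported here and were left out of the list counts.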

Additional observations from a re-analysis of the deposited data

Results flagged for a closer look

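For 3 of the 4 genes stimulation went in opposite directions without and with injury: every library with stimulation alone was above every control, and every library with injury and stimulation was below every injury library. The interaction was -2.80 for Pltp, -1.64 for Plin3 and -1.83 for Abca2 (log2). These genes were chosen on such values, so their calls in the interaction are a description and no evidence of a difference.

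Among the 47 tested genes of the lipid lists, 15 had an interaction of injury and stimulation with an adjusted p under 0.05 in edgeR, 12 of them below 0, against 19.2% of all intervals. From the most negative, the values were -1.85 for Fa2h, -1.36 for Clu, -1.30 for Cpt1c, -1.05 for Acaca, -0.99 for Lrp1, -0.99 for Arsa and -0.99 for Fads1. Nr1h2 had -0.94, Mgll -0.82, Gal3st1 -0.78, Acadl -0.77 and Cers2 -0.70. The values above 0 were those of Abca8b (0.88), Abca1 (0.83) and Hilpda (0.67). After GC and length correction, 3 of the 47 genes were past the threshold, Fa2h below 0 and Abca1 and Hilpda above 0. In that fit 753 of the 13053 intervals were past it, 362 of them below 0. Leaving out each library gave from 6 (without stimulation-alone replicate 2) to 20 (without replicate 1 of injury with stimulation) of the 47 genes.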

How the results depend on the processing

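No value named above changed sign where it had been past the threshold. Leaving out each library gave 2465 to 4847 intervals past the threshold for injury against control (4046 with all libraries), 5 to 338 (201) for injury with stimulation against injury, 11 to 4349 (2247) for injury with stimulation against control, 74 to 1804 (531) for injury with stimulation against stimulation alone and 1126 to 3407 (2507) for the interaction. The lowest counts came, in this order, without injury replicate 2, replicate 3 of injury with stimulation, the same library again, stimulation-alone replicate 3 and stimulation-alone replicate 2. The interaction ranged from -1.76 to -1.45 for Plin3 and from -0.79 to -0.40 for Srebf2. DESeq2 gave 368 for injury with stimulation against injury and 1166 against stimulation alone, and no filter gave 364 for the former. With only the groups compared there were 127 for injury with stimulation against injury, 1125 against control and 0 in edgeR against stimulation alone, where 1730 had an unadjusted p under 0.05 and DESeq2 on all libraries gave 1166.

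After GC and length correction, the counts were 2164 for stimulation alone against control, 1405 for injury with stimulation against control, 222 against stimulation alone and 753 for the interaction, of which 362 were below 0 against 1611 of 2507 before. Injury against control became 1.11 for Plin3 and -0.065 for Srebf2. Stimulation alone against control became 1.24 for Pltp, 0.37 for Plin3, 0.72 for Abca2 and 0.32 for Srebf2. Injury with stimulation against stimulation alone became 0.24 for Abca2, and the interaction -2.33 for Pltp, -1.25 for Plin3, -1.36 for Abca2 and -0.31 for Srebf2. The cause was not tested.

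The replicate numbers did not pair the libraries: over 18 same-numbered pairs the correlation of deviations ran from -0.26 to 0.20, with 1 pair over 0.1. Across numbers, stimulation-alone replicate 3 had 0.44 with replicate 2 of injury with stimulation and -0.39 with replicate 1 of that group. A replicate block gave 294 intervals for injury with stimulation against stimulation alone. The replicate block with GC and length correction gave 2474 for injury against control, 92 for injury with stimulation against injury, 1578 for stimulation alone against control, 601 for injury with stimulation against control, 56 against stimulation alone and 432 for the interaction. The log2 values in that fit were 1.11 for Plin3 and -0.063 for Srebf2 (injury against control), 1.22 for Pltp, 0.37 for Plin3, 0.71 for Abca2 and 0.33 for Srebf2 (stimulation alone against control), and -2.32 for Pltp, -1.25 for Plin3, -1.38 for Abca2 and -0.31 for Srebf2 (interaction).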
